A study of Mus musculus with 36 samples.

Results

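The 36 genes described here carry cells from G2 through mitosis, and each was taken from a list of symbols and matched to 1 row of the deposited count table, 36 of 32285 mouse genes. They were grouped by role into CDK1, its cyclins and their switch (6 genes), the transcription factor Foxm1, the Aurora kinases and chromosomal passenger complex (5), the spindle checkpoint with the activators of the anaphase-promoting complex and securin (7), centromere and kinetochore proteins (3), kinesin motors (6), spindle assembly factors (4), cytokinesis factors (2), and Top2a with the proliferation marker Mki67 (2). Cyclin B binds CDK1 to start mitosis, PLK1 and the Aurora kinases drive spindle and chromosome events, and the anaphase-promoting complex with CDC20 ends it by destroying cyclin B and securin. Most of these genes are silent in resting cells and are transcribed late in the cycle, under FOXM1, B-MYB and NF-Y with the MuvB complex, and for this reason they are often read together as a sign of cycling cells. In bulk RNA, fewer cells in G2 and mitosis and less RNA of these genes per cell cannot be told apart.

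RNA-seq was done on 2 mouse mammary cancer lines, AT-3, from a tumour of an MMTV-PyMT mouse, and E0771, from a spontaneous mammary adenocarcinoma. Per the labels, 150000 cells were plated, left for 24 h, and then given 1 of 6 treatments for 24 h. These were DMSO (the vehicle), NS11021 at 10 µM (an opener of the BK potassium channel), BMS204352 at 10 µM (an opener of BK and KCNQ potassium channels), KCl at 40 mM (raised potassium outside the cell, which depolarises cells), KCl+NS11021 and KCl+BMS204352, at the same concentrations. Each of the 12 groups had 3 libraries, 36 in all. Nothing in the labels says that replicates were separate cultures, so p-values measure the spread between these libraries, which may be technical. No cell number, viability or cycle phase is given in the sources used here, and the labels do not say whether either line is a clone.

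Promoter sequences of 29 of the 36 genes were found in the RefSeq table (GRCm38.p6), and the 250 bases before the start of each were searched on both strands. The cell cycle homology region (CHR) binds the MuvB complex, and CCAAT boxes bind NF-Y. The CHR was searched as TTTGAA or TTCGAA, and the box as CCAAT. The 29 genes had 31 promoters, and a gene counted if any of its promoters matched. The background counts single promoters, so the shares of the genes can lie somewhat higher for this reason. CHR letters were in 11 of 29 genes (37.9%), against 17.1% of all 32851 promoters of this length. CCAAT letters were in 22 of 29 (75.9%), against 33.8%, and at least 2 of them in 16 (55.2%), against 10.1%. Both kinds were in 10 of 29 (34.5%), against 6.02%. A match describes letters only. The 4 promoters shown are those of the index genes Cdk1, Cdc20, Top2a and Mki67, chosen because they hold CHR letters. Their values are followed throughout. Each runs 5′ to 3′ on the gene's own strand, ends at the start or where an annotated exon of the gene begins, and has the CHR and CCAAT letters of either strand in capitals.
Cdk1: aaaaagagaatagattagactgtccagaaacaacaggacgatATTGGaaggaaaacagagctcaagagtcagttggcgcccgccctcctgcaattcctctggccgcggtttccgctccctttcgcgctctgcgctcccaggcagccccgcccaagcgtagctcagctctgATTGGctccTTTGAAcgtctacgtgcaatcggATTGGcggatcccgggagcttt
Cdc20: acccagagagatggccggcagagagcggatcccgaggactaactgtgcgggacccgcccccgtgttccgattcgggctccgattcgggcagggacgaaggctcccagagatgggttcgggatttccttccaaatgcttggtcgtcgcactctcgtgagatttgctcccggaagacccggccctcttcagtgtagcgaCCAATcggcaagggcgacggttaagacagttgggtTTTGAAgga
Top2a: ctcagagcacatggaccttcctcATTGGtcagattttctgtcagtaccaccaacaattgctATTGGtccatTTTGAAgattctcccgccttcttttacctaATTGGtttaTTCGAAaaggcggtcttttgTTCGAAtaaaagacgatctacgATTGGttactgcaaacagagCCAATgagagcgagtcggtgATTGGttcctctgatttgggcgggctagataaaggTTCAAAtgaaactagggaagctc
Mki67: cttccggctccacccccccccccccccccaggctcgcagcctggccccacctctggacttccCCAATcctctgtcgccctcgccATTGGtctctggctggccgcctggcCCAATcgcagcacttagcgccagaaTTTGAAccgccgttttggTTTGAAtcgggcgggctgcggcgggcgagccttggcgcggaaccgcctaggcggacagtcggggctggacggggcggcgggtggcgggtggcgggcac
These stretches lie at chr10:69352939-69353162, chr4:118437353-118437593, chr11:99024190-99024439 and chr7:135716380-135716629, all on the minus strand, upstream of genes at chr10:69335146-69352938, chr4:118432901-118437352, chr11:98992943-99024189 and chr7:135689784-135716361. Matches are those in the printed bases, and positions count back from the RefSeq start. That start lies past the printed end by 26 bases in Cdk1 and 9 in Cdc20, which were left out as exon. The CHR letters of Cdk1 begin 71 bases before its RefSeq start, and its CCAAT letters, in reverse, begin at 208, 80 and 48. The 26 bases of Cdk1 left out as exon hold another CHR match, since its 250 bases hold 2. In the printed bases of Cdc20, 1 match of each kind sits 18 (CHR) and 53 (CCAAT) bases before the start. Top2a has the most, with 4 CHR matches and 6 CCAAT matches, and Mki67 has 2 and 3. No match overlapped another. In AT-3 with KCl+BMS204352 against DMSO, the median log2 fold change was -0.37 over the 11 genes with CHR letters and -0.35 over the 18 without. In E0771 it was -0.06 with them and -0.17 without. These medians were not tested.

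Library totals ran from 38456590 to 52581746 counts in AT-3 and from 31248794 to 47923693 in E0771, and all 36 genes passed the filter on low counts in each fit. A principal component analysis set 3 libraries apart from their groups. Replicate 3 of AT-3 BMS204352 had a score of 65.9 on the leading component against 17.2 and 22.1 for its partners, replicate 3 of AT-3 KCl+BMS204352 had 30.1 against -3.2 and 1.3, and replicate 3 of E0771 BMS204352 had -30.2 on the third component against -3.4 and 1.1. CPM is the count scaled to a library total of 1000000. Of 11 epithelial markers, 6 reached a mean of 1 CPM over the 18 libraries of AT-3 and 3 over those of E0771. The 3 were Krt8, Erbb2 and Esr1, with Krt8 at a mean of 202 CPM and Erbb2 at 70.0 under DMSO. Epcam, Krt18, Krt19, Cdh1, Krt7, Cldn3, Cldn4 and Cldn7 had means below 1 CPM in E0771. Those below it in AT-3 were Krt8 (0.349 CPM under DMSO), Krt19, Cldn3, Cldn4 and Esr1. In E0771 the 11 epithelial markers summed to 273 to 277 CPM under DMSO and the 8 fibroblast markers to 291 to 327 CPM, with 4 of the 8 detected at 1 CPM or more and Dcn, Lum and Thy1 at 0. In AT-3 these sums were 1137 to 1184 and 69.3 to 77.7 CPM. The 7 leukocyte markers summed to at most 22.6 CPM and the 6 endothelial markers to at most 6.76 CPM in any library. The exons of 6 of the 36 genes share over 10% of their bases with another gene (Ccna2, Cdc25c, Ube2c, Kif20a, Kif4 and Prc1). The counting strand is not given in the sources used here, so part of their counts may belong to that neighbour.

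In the DMSO libraries, levels per length of exon spread widely within each line and differed between the lines for most of the 36 genes. The highest levels in CPM per kb were those of Cdc20, which activates the anaphase-promoting complex, at 149.8 ± 10.5 (mean ± SD, n = 3) in AT-3 and 137 ± 1.34 in E0771. Next in AT-3 came Plk1 (127 ± 5.11 per kb), Top2a, the topoisomerase that untangles sister chromatids (117 ± 3.66), and Ube2c, the ubiquitin-conjugating enzyme of the complex (111 ± 5.79). Top2a lay within 1 SD of Ube2c. In E0771 the order was Ube2c (108 ± 1.40 per kb), Plk1 (102 ± 1.16), Tpx2 (96.9 ± 2.38), Ccna2 (95.3 ± 2.57) and Top2a (95.03 ± 0.710), where the last 3 lay within 1 SD of a neighbour. The lowest levels were those of securin, Pttg1, in AT-3 (9.76 ± 1.19 per kb) and of the checkpoint kinase Ttk in E0771 (4.16 ± 0.301).

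Of the 36 genes, 4 were higher and 18 lower in E0771 than in AT-3 under DMSO. Adjusted p-values throughout are from edgeR's quasi-likelihood test with Benjamini-Hochberg adjustment over all genes of a comparison, with a threshold of 0.05. In that comparison 74.5% of all genes passed, 34.1% higher and 40.4% lower, so the share called among the 36 was below the background. Mki67 read 743, 1114 and 893 CPM in AT-3 and 236, 232 and 266 in E0771, a log2 difference of -1.91 ± 0.18 (SE), adjusted p = 3.55e-10. The groups did not overlap, and the AT-3 libraries varied more among themselves. Pttg1 went the other way, with 19.4, 21.9 and 17.2 CPM in AT-3 and 63.5, 62.1 and 60.1 in E0771 (1.67 ± 0.10 (SE), adjusted p = 1.14e-16). Ttk read 61.1, 52.9 and 56.3 CPM in AT-3 and 21.5, 21.2 and 18.8 in E0771 (-1.47 ± 0.14 (SE), adjusted p = 4.25e-11). The microtubule bundler Nusap1 was lower in E0771 too, by a log2 difference of -1.10 ± 0.09 (SE), adjusted p = 2.46e-12, and so were Cdc25c, the phosphatase that activates CDK1 (-0.82), and Anln, the scaffold of the cytokinetic ring (-0.63). Bub1 (0.40), Tpx2 (0.31) and Mad2l1 (0.30) were the others that were higher in E0771. The index genes Ccna2 (0.14), Aurka (-0.02), Cdc20 (-0.13), Ccnb1 (-0.03) and Foxm1 (-0.06) did not pass. All 22 calls held in every alternative analysis.

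**Figure D1:**
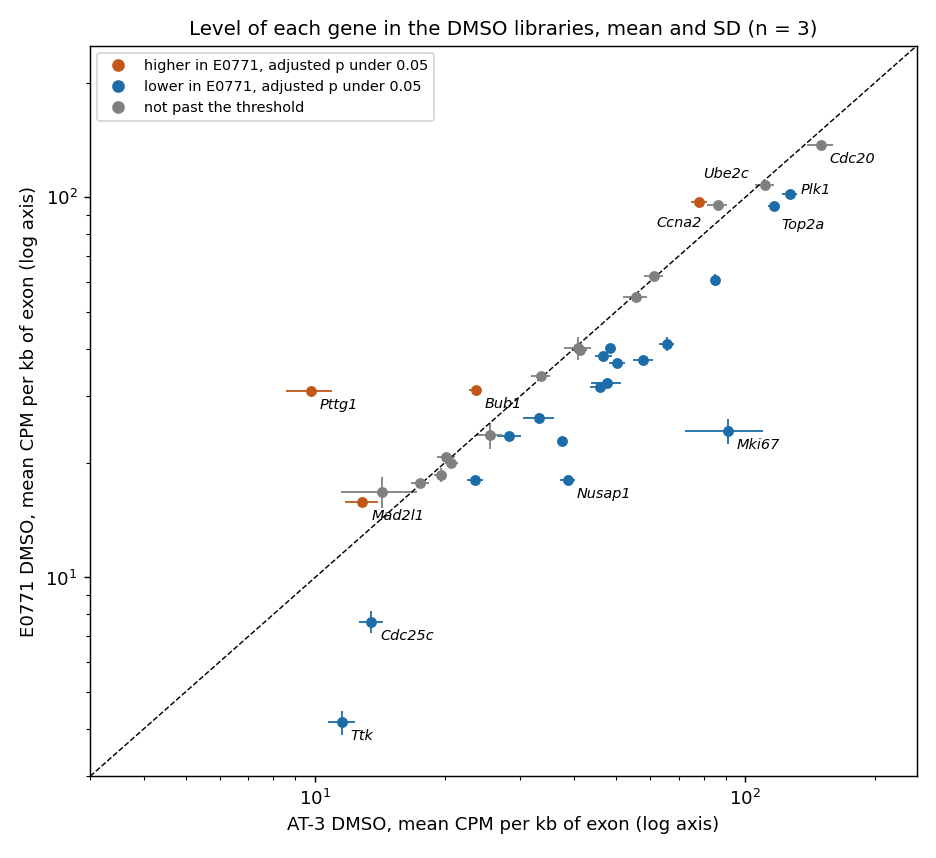
Mean level of each of the 36 genes in the DMSO libraries of AT-3 (x axis) and E0771 (y axis), in CPM per kb of exon on log axes, with SD bars (n = 3) and a dashed line of equal level. Mki67, Ttk, Nusap1 and Cdc25c lie well below the line and Pttg1 well above it, while Cdc20 leads in both lines.

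Summed over the 36 genes, the share of library counts was highest under DMSO in AT-3 and varied less in E0771. In AT-3 the shares were 0.864, 0.868 and 0.868% under DMSO, 0.854, 0.809 and 0.837% with NS11021, and 0.773, 0.784 and 0.781% with KCl. With KCl+NS11021 they were 0.748, 0.731 and 0.770%. With BMS204352 they were 0.821, 0.758 and 0.561%, and with KCl+BMS204352 0.701, 0.649 and 0.610%. Replicate 3 was the lowest of its group in both BMS204352 groups of AT-3 and is the library that stood apart. In E0771 the DMSO shares were 0.702, 0.694 and 0.710% and the KCl shares 0.679, 0.681 and 0.725%, which overlap. The shares with NS11021 (0.684, 0.675 and 0.681%), BMS204352 (0.666, 0.672 and 0.610%), KCl+NS11021 (0.630, 0.631 and 0.634%) and KCl+BMS204352 (0.664, 0.662 and 0.614%) all lay below the DMSO libraries. The sum is given as a description, with no test, since the few genes with most counts weigh most in it.

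**Figure D2:**
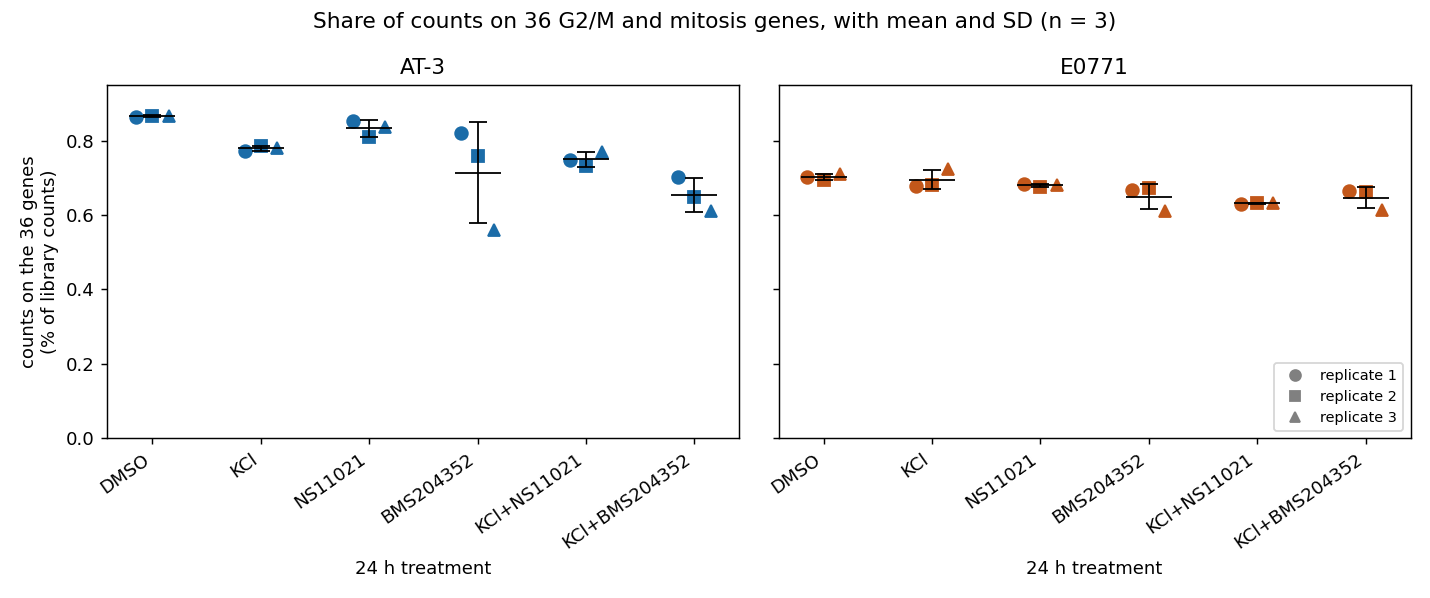
Share of each library's counts that fell on the 36 genes, in percent (y axis from 0), by 24 h treatment (x axis) in AT-3 and E0771; symbols are libraries, and bars show mean and SD (n = 3). In AT-3 the KCl+BMS204352 libraries lie between 0.610% and 0.701%, all below DMSO at 0.864% to 0.868%, and the BMS204352 libraries spread from 0.561% to 0.821%.

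In AT-3, KCl and NS11021 given alone moved none of the 36 genes past the threshold. With KCl, 0 of 36 passed by edgeR, where 4.83% of all genes passed. Of the 36, 4 had an unadjusted p under 0.05 and 1 passed by DESeq2. Counts of sign and of unadjusted p are given, here and below, for the 36 genes without the share over all genes. They are descriptions only. The log2 fold changes had a median of -0.14, and 32 of 36 were negative. Ccna2, cyclin A2, which partners CDK2 and CDK1, had the largest change: 370.1, 332 and 354 CPM under DMSO and 284, 274 and 289 with KCl (-0.31 ± 0.11 (SE), adjusted p = 0.122). Its groups do not overlap, although the call was not made. Prc1, which cross-links the central spindle, had the smallest adjusted p (-0.26 ± 0.08 (SE), adjusted p = 0.066). Without the 3 libraries that stood apart, 6 genes passed for KCl, 1 higher and 5 lower. Counts from alternative fits, DESeq2 among them, are given, here and below, without the share of all genes called in those fits. Shares of all genes are those of edgeR's main fit. A move in such a count is not read as particular to the 36 genes. With NS11021, 0 of 36 passed by edgeR or DESeq2 and 0 had an unadjusted p under 0.05, against 0.0745% of all genes called. The median log2 fold change was -0.02, and the largest was that of Mki67 (-0.28 ± 0.23 (SE), adjusted p = 0.834), whose libraries read 756, 728 and 759.6 CPM, inside the range of the DMSO libraries apart from the replicate at 728.

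BMS204352 alone lowered 2 of the 36 genes in AT-3. Of all genes 5.27% passed, 1.997% lower. Cenpa, the histone variant that marks centromeres, read 124, 118 and 112 CPM under DMSO and 99.8, 104 and 79.9 with BMS204352 (-0.31 ± 0.08 (SE), adjusted p = 0.0308). The kinesin of the central spindle Kif20a read 208, 188 and 201 and 183, 163 and 125 (-0.33 ± 0.10 (SE), adjusted p = 0.0493). In both genes replicate 3 was the lowest library. The median log2 fold change of the 36 was -0.29, 34 were negative, and 31 had an unadjusted p under 0.05. The shares of all genes that did so are not given here, so nothing particular to the 36 is read from these counts. Aurka (-0.34 ± 0.10 (SE), adjusted p = 0.0544) and Bub1b, the checkpoint protein BUBR1 (-0.43 ± 0.12 (SE), adjusted p = 0.0573), narrowly missed the threshold, and the size of Mki67's change was the largest (-0.51 ± 0.23 (SE), adjusted p = 0.226) with libraries at 874, 659 and 387 CPM. The count of calls was 0 without BMS204352 replicate 3 or without any 1 DMSO library, 6 without BMS204352 replicate 2 and 26 without BMS204352 replicate 1. It was 9 with DESeq2, 7 with the replicate number as a block and 0 when only the 6 libraries compared were fitted. The shares of all genes called in these fits are not given here. The 4 mesenchymal markers together (Vim, Cdh2, Fn1 and Zeb1, all detected) summed to 5235 to 7099 CPM under DMSO and 6343 to 12564 CPM with BMS204352, with the mean of Fn1 at 4269.6 and 6614 CPM and that of Cdh2 at 180.0 and 145. The 8 fibroblast markers summed to 69.3 to 77.7 CPM under DMSO and 44.2 to 65.5 with BMS204352, and the 11 epithelial markers to 1137 to 1184 and 1320.4 to 1490.2. Endothelial markers summed to 1.75 to 2.05 and 2.93 to 6.23 CPM. The 7 leukocyte markers (Ptprc and Cd3e at 0) summed to 4.61 to 6.12 CPM under DMSO and 8.86 to 22.6 CPM with BMS204352, nearly all of it Cd68, with means of 4.77 and 13.1 CPM. The part of these markers in the result was not tested.

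The combination of KCl and BMS204352 lowered 26 of the 36 genes in AT-3 and raised none, where 13.1% of all genes passed and 5.88% were lower. All 36 log2 fold changes were negative, with a median of -0.36 against 0.01 over all genes tested. The falls were of moderate size, from 17% for Bub1 to 41.8% for Mki67. In 31 of the 36 genes each treated library lay below each DMSO library. The same count was not made over all genes, so nothing particular to the 36 is read from it.

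**Figure D3:**
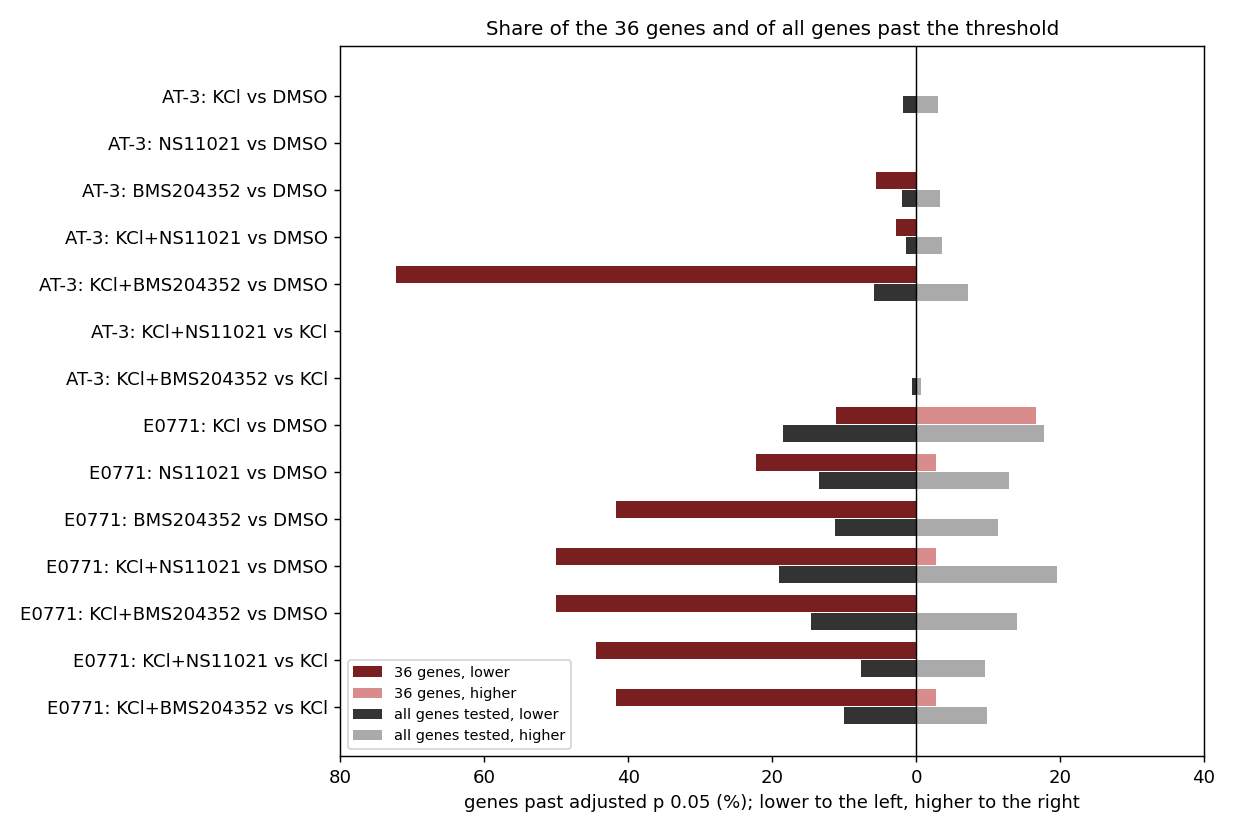
Percent of the 36 genes (red) and of all genes tested (grey) past an adjusted p of 0.05 in each comparison, lower to the left and higher to the right (x axis). In AT-3 the KCl+BMS204352 comparison stands out with 26 of 36 genes lower, and in E0771 the share lower among the 36 exceeds that of all genes against DMSO except with KCl alone.

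By role, in that comparison, 4 of 6 genes of CDK1 and its cyclins fell. Ccna2 read 272, 238 and 216 CPM with KCl+BMS204352 against 370.1, 332 and 354 under DMSO (-0.55 ± 0.11 (SE), adjusted p = 0.00373), a fall in which no library overlapped. Cdk1, the kinase itself, read 204, 189 and 179.6 against 241, 219.8 and 232 (-0.28 ± 0.08 (SE), adjusted p = 0.0296), and Ccnb1, cyclin B1, read 149.8, 127 and 125 against 184, 159 and 174 (-0.37 ± 0.10 (SE), adjusted p = 0.0183). Cdc25c fell as well (-0.32). Plk1, the kinase that promotes entry and spindle formation, read 247, 232 and 194 against 287, 266 and 284 and did not pass (-0.32 ± 0.11 (SE), adjusted p = 0.0506), nor did Ccnb2 (-0.29). Foxm1, which activates many of these promoters, did not pass either: its libraries read 231, 214 and 203 CPM and 238, 228 and 246 under DMSO, which overlap (-0.14 ± 0.08 (SE), adjusted p = 0.27).

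All 5 genes of the Aurora kinase and passenger group fell. Aurka, the kinase of spindle poles, read 117, 107 and 91.7 CPM against 149, 131 and 143 (-0.43 ± 0.10 (SE), adjusted p = 0.00929). Aurkb, the enzyme of the passenger complex, read 154, 145 and 122 against 199, 184 and 197 (-0.47 ± 0.12 (SE), adjusted p = 0.014). Its partners Birc5 (survivin), Cdca8 (borealin) and Incenp had log2 fold changes of -0.41, -0.33 and -0.42. Among the checkpoint and anaphase genes 5 of 7 fell. Cdc20 read 226, 213 and 177 CPM against 299, 260.0 and 280.0 (-0.45 ± 0.13 (SE), adjusted p = 0.0272) and Ube2c 243, 233 and 226 against 296, 272 and 299 (-0.31 ± 0.07 (SE), adjusted p = 0.00637). The checkpoint genes Bub1b (-0.44), Mad2l1 (-0.35) and Bub1 (-0.27) fell as well, while Ttk (-0.27) and Pttg1 (-0.12) did not pass.

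Prc1, a spindle assembly gene, had the smallest adjusted p of the 36. It read 152, 139 and 135 CPM against 203, 187 and 191 (-0.45 ± 0.08 (SE), adjusted p = 0.00112) and Nusap1 121, 115 and 104 against 164, 154 and 153 (-0.48 ± 0.10 (SE), adjusted p = 0.00458). Hmmr, a spindle pole protein, fell by 25.1% and Tpx2, which activates Aurora A, by 22.3%, so that all 4 spindle assembly genes fell. Of the kinesins 4 of 6 fell: the chromokinesin Kif4 (-0.38 ± 0.09 (SE), adjusted p = 0.00703), Kif23 of the central spindle (-0.32), Kif20a (-0.40) and Kif11, the motor that separates the poles (-0.37). Kif20b (-0.32) and the microtubule depolymerase Kif2c (-0.22) did not pass. At the centromere, Cenpe, the kinesin of kinetochores (-0.49), and Cenpa (-0.34) fell. Cenpf had a change of -0.59, larger than either, but its DMSO libraries spread from 179 to 267 CPM and it missed the threshold (adjusted p = 0.0625).

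Top2a read 767, 696 and 683 CPM with KCl+BMS204352 against 1026, 1088 and 1037 under DMSO (-0.56 ± 0.13 (SE), adjusted p = 0.00924). Mki67, which coats mitotic chromosomes and serves as a marker of cycling cells, read 573, 557 and 475 against 743, 1114 and 893. Its fall was the largest of the 36 and the least certain of the 26 calls (-0.78 ± 0.23 (SE), adjusted p = 0.0446, with adjusted p up to 0.158 over the alternatives). Neither cytokinesis gene passed, with Anln at 489, 443 and 530.3 CPM and Ect2, which acts at the cleavage furrow, at 183, 170.1 and 161, both overlapping DMSO. The genes Ccna2, Cenpe, Hmmr, Kif23, Kif4, Nusap1, Prc1 and Ube2c kept the call in every alternative. Replicate 3 of KCl+BMS204352 was the lowest of its group in 24 of the 26 genes that fell, and without it the count of 26 was 8. The count was 14 without DMSO replicate 1, DMSO replicate 3 or KCl+BMS204352 replicate 2. Without all 3 libraries that stood apart it was 30, with the share of all genes in that fit not given here. Mitochondrial transcripts took 0.687% to 0.792% of counts in the KCl+BMS204352 libraries of AT-3 and 0.490% to 0.608% in the remaining AT-3 samples. The 6 endothelial markers summed to 2.94 to 3.26 CPM there against 1.75 to 2.05 under DMSO (1 of 6 at a mean of 1 CPM or more), while the other 4 marker lists had sums that overlapped DMSO. The part of both in the result was not tested.

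Set against DMSO, KCl+NS11021 lowered 1 of the 36 genes in AT-3. Of all genes 5.03% passed and 1.37% were lower. That gene was Prc1, at 156, 144 and 165 CPM against 203, 187 and 191 (-0.31 ± 0.08 (SE), adjusted p = 0.0276), with no overlap. The median log2 fold change was -0.20, with 33 of 36 negative and 15 at an unadjusted p under 0.05. Neither count is set against all genes. Without DMSO replicate 1 or 3, or KCl+NS11021 replicate 1 or 2, the call on Prc1 was lost and 0 genes passed. When the fit left out the 3 libraries that stood apart, 16 genes passed, all lower, and when it held only the 6 libraries compared, 15 passed, all lower. The share of all genes called in these fits is not given here, so the rise is not read as particular to the 36. With DESeq2 2 passed, and with a replicate block 3. Leukocyte markers summed to 2.54 to 4.32 CPM with KCl+NS11021, below the 4.61 to 6.12 under DMSO, and the part of this in the result was not tested. Neither BMS204352 group is part of this comparison, but in the fit over all AT-3 libraries they share its estimate of spread.

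The other index genes, none of which passed in AT-3 outside the KCl+BMS204352 comparison, lay as follows in the other 4 treatments, each with its log2 fold change against the shared DMSO libraries in parentheses. Cdk1 read 219, 206 and 228 CPM with KCl (-0.08), 237, 214 and 232 with NS11021 (-0.01), 233, 213 and 175 with BMS204352 (-0.15) and 205, 198 and 225 with KCl+NS11021 (-0.13). Ccnb1 read 156, 140.3 and 163 CPM with KCl (-0.16), 176, 165 and 173 with NS11021 (0.0044), 163, 161 and 121 with BMS204352 (-0.21) and 151, 137 and 156 with KCl+NS11021 (-0.21). Plk1 read 273, 258 and 286 CPM with KCl (-0.03), 279, 267 and 278 with NS11021 (-0.01), 244, 254 and 174 with BMS204352 (-0.31) and 260.3, 242 and 271 with KCl+NS11021 (-0.11). In all 3 genes the lowest library was replicate 3 of BMS204352. Aurka read 127, 117 and 134 CPM with KCl (-0.15), 137, 126 and 137 with NS11021 (-0.06), 121, 119.6 and 90.7 with BMS204352 (-0.34) and 117, 112 and 130.4 with KCl+NS11021 (-0.22). Aurkb read 166, 157 and 178 CPM with KCl (-0.21), 203, 188 and 194 with NS11021 (0.03), 175, 174 and 117 with BMS204352 (-0.31) and 158, 161 and 179.8 with KCl+NS11021 (-0.21). Cdc20 read 252, 232 and 268 CPM with KCl (-0.15), 286, 261 and 290.2 with NS11021 (0.01), 249.6, 241 and 161 with BMS204352 (-0.36) and 247, 231 and 241 with KCl+NS11021 (-0.21). These genes too had their lowest library in replicate 3 of BMS204352. Top2a read 857, 944 and 809 CPM with KCl (-0.26), 1063, 1004 and 999 with NS11021 (-0.02), 1032, 899 and 605 with BMS204352 (-0.30) and 860.3, 871 and 851 with KCl+NS11021 (-0.28). Foxm1 read 250.4, 236 and 266 CPM with KCl (0.09), 239, 218 and 238 with NS11021 (-0.02), 231, 218 and 176 with BMS204352 (-0.18) and 240.2, 225 and 258 with KCl+NS11021 (0.03). Top2a lay lower with KCl than under DMSO in every library, while the Foxm1 libraries with KCl overlapped those under DMSO.

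Adding a compound to KCl moved no gene past the threshold in AT-3. For KCl+NS11021 against KCl, 0 of 36 passed by edgeR or DESeq2 and 0 had an unadjusted p under 0.05, against 0.0203% of all genes called, the median was -0.05, and the largest change was that of Cenpf (-0.16 ± 0.19 (SE), adjusted p = 1). For KCl+BMS204352 against KCl, 0 of 36 passed by edgeR, against 1.24% of all genes by edgeR, and 2 of 36 passed by DESeq2. Of the 36, 25 had an unadjusted p under 0.05 and 35 were negative, with a median of -0.24. Those counts have no share of all genes beside them. The largest change was that of Mki67 (-0.48), and Ect2 had the smallest adjusted p (-0.28 ± 0.08 (SE), adjusted p = 0.0942), and its libraries read 200.2, 198 and 221 CPM with KCl and 183, 170.1 and 161 with the combination. Without the 3 libraries that stood apart, 5 genes passed, all lower. With a replicate block 3 passed, and with only the libraries compared 2.

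In E0771, KCl alone split the 36 genes. It raised 6 and lowered 4, where 17.8% of all genes were higher, 18.6% lower and 36.4% called in all, so the share called among the 36 was below the background. The median log2 fold change was -0.01. Foxm1 had the smallest adjusted p and rose, from 224, 229 and 233 CPM under DMSO to 258, 259 and 261 with KCl (0.19 ± 0.04 (SE), adjusted p = 0.000271). Ect2 rose from 146, 137 and 142 to 158, 174 and 174 (0.26 ± 0.06 (SE), adjusted p = 0.00197), and Kif2c from 150.3, 148 and 144 to 171, 162 and 175 (0.21 ± 0.05 (SE), adjusted p = 0.00221). In each of these the KCl libraries all lay above DMSO. Ccnb2 (0.23, adjusted p = 0.0352), Nusap1 (0.22, 0.0142) and Bub1 (0.16, 0.0228) rose too, but lost the call in some alternatives.

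The genes that fell with KCl in E0771 were led by Cenpf, the large kinetochore protein, at 251, 241 and 287 CPM under DMSO and 183, 194 and 213 with KCl (-0.39 ± 0.08 (SE), adjusted p = 0.00124). Cdca8 fell from 121, 120.4 and 124 to 102, 106 and 111 (-0.18 ± 0.05 (SE), adjusted p = 0.00289), while its passenger partners Aurkb (0.08), Birc5 (-0.03) and Incenp (0.08) did not pass. Cenpe (-0.15, adjusted p = 0.0149) and Kif20b (-0.13, 0.0432) were the other genes that fell. Cenpe overlapped DMSO and lost the call in 3 alternatives, and Kif20b lost it in 8, DESeq2 among them. Cdk1 (0.11), Ccna2 (0.05), Ccnb1 (-0.14), Plk1 (-0.02), Aurka (0.11), Cdc20 (-0.11), Top2a (-0.10) and Mki67 (0.06) did not pass. The count of 10 calls was 6 without DMSO replicate 3 or KCl replicate 1. Replicate 1 of KCl was the lowest of its group in all 4 genes that fell. The count was 20 (12 higher and 8 lower) when only the 6 libraries compared were fitted, with the share of all genes in that fit not given here. Of the 5 marker lists, 4 had sums with KCl that did not overlap DMSO. The sums were epithelial 223 to 237 against 273 to 277 CPM, mesenchymal 3280.2 to 3359 against 3678 to 3788, leukocyte 4.64 to 6.24 against 10.3 to 11.04, and endothelial 3.54 to 6.76 against 1.501 to 1.903. Of these lists 3 of 11, 2 of 4, 2 of 7 and 2 of 6 markers reached a mean of 1 CPM in E0771, and Adgre1 and Emcn were at 0. Their part in the result was not tested.

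NS11021 alone lowered 8 of the 36 genes in E0771 and raised 1, where 26.3% of all genes passed, 13.5% lower and 12.8% higher. The total called, 9 of 36, was close to the background. Kif23, a motor of the central spindle, had the smallest adjusted p and fell from 138, 143 and 138 CPM to 124, 115 and 122 (-0.22 ± 0.04 (SE), adjusted p = 0.000385). Foxm1 fell from 224, 229 and 233 to 197, 195 and 208 (-0.19 ± 0.04 (SE), adjusted p = 0.000676), the opposite of its change with KCl. These were the only calls of the 9 kept in every alternative. Birc5 (-0.15), Cdca8 (-0.14), Incenp (-0.12), Kif11 (-0.14), Ttk (-0.31) and Cdk1 (-0.16) fell with adjusted p-values from 0.0267 to 0.0371. Top2a rose, from 849, 862 and 858 CPM to 927, 956 and 926 (0.13 ± 0.04 (SE), adjusted p = 0.0169), with no overlap. Replicate 2 of NS11021 was the lowest of its group in all 8 genes that fell. The count of 9 was 2 without DMSO replicate 1 or NS11021 replicate 2 and 3 without NS11021 replicate 3. It was 4 without DMSO replicate 3, 5 without DMSO replicate 2, and 14 when only the 6 libraries compared were fitted. Mesenchymal markers summed to 4539 to 4579 CPM with NS11021, leukocyte markers to 20.1 to 20.6, and endothelial markers to 2.48 to 3.07, all above DMSO, and fibroblast markers to 264 to 281, below DMSO at 291 to 327. Their part in the result was not tested.

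BMS204352 alone lowered 15 of the 36 genes in E0771 and raised none, where 22.7% of all genes passed and 11.3% were lower. The median log2 fold change was -0.14 against 0.0018 for all genes. Kif23 again had the smallest adjusted p, with 115, 116 and 115 CPM against 138, 143 and 138 (-0.28 ± 0.04 (SE), adjusted p = 3.06e-05). Cenpa fell to 98.6, 107 and 86.4 from 123, 123 and 119 (-0.32 ± 0.06 (SE), adjusted p = 0.000484), Foxm1 to 196, 205 and 195 (-0.20 ± 0.04 (SE), adjusted p = 0.000665), and Ccna2 to 339, 347 and 291 from 395, 377 and 395 (-0.25 ± 0.05 (SE), adjusted p = 0.00104). No library overlapped with DMSO in these 4 genes. Incenp (-0.18) and Birc5 (-0.20) fell as well. Cdc20 (-0.21), Cdk1 (-0.19), Cdca8 (-0.16), Plk1 (-0.15), Bub1 (-0.19), Mad2l1 (-0.18), Anln (-0.13), Ect2 (-0.20) and Kif2c (-0.15) were the other genes that fell, while Aurka (-0.11), Aurkb (-0.04), Top2a (0.07) and Mki67 (-0.06) did not pass. Leaving out replicate 3 of BMS204352, the library that stood apart and the lowest of its group in 14 of those 15 genes, reduced the count to 6. It was 10 without DMSO replicate 3 and 9 when only the 6 libraries compared were fitted. With BMS204352, mesenchymal markers summed to 4193 to 4258 CPM and leukocyte markers to 15.9 to 16.1, above DMSO, and fibroblast markers to 253 to 287, below DMSO. Their part in the result was not tested.

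KCl+NS11021 lowered 18 of the 36 genes in E0771 against DMSO and raised 1, where 38.6% of all genes passed, 19.04% lower and 19.6% higher. Cdca8 had the smallest adjusted p and read 92.9, 91.7 and 93.1 CPM against 121, 120.4 and 124 (-0.38 ± 0.05 (SE), adjusted p = 1.83e-07). Kif23 read 110.0, 112 and 109.9 against 138, 143 and 138 (-0.33 ± 0.04 (SE), adjusted p = 4.22e-07), Plk1 179, 181 and 185 against 225, 222 and 227 (-0.29 ± 0.04 (SE), adjusted p = 2.85e-06), and Birc5 103, 95.04 and 102 against 128, 124 and 123 (-0.31 ± 0.05 (SE), adjusted p = 9.78e-06). In each of these genes all 3 treated libraries lay below DMSO. All 3 centromere and kinetochore genes fell, with Cenpf at -0.43, Cenpa at -0.23 and Cenpe at -0.20. Prc1 (-0.25), Tpx2 (-0.21) and Hmmr (-0.16) fell among the spindle genes. Cdc20 (-0.29), Ube2c (-0.21) and Mad2l1 (-0.15) fell among the checkpoint and anaphase genes. Kif20b, Kif20a, Ccnb1 (-0.30), Ccna2 (-0.16) and Incenp completed the 18. Kif2c rose (0.15 ± 0.05 (SE), adjusted p = 0.0234), as with KCl alone. Cdk1 (-0.06), Aurka (-0.11), Aurkb (-0.02), Top2a (-0.05), Mki67 (-0.09) and Foxm1 (-0.07) did not pass. Of the 19 calls, 14 were kept in every alternative. Epithelial markers summed to 217 to 219.9 CPM with KCl+NS11021 against 273 to 277 under DMSO, mesenchymal markers to 3876 to 4039 against 3678 to 3788, and endothelial markers to 4.38 to 6.62 against 1.501 to 1.903. Mitochondrial transcripts took 0.725% to 0.750% of counts against 0.626% to 0.720%. Their part in the result was not tested.

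KCl+BMS204352 lowered 18 of the 36 genes in E0771 against DMSO and raised none, where 28.6% of all genes passed and 14.6% were lower. Kif23 (-0.29 ± 0.04 (SE), adjusted p = 5.94e-06), Birc5 (-0.33 ± 0.05 (SE), adjusted p = 6.6e-06) and Cdca8 (-0.32 ± 0.05 (SE), adjusted p = 8.01e-06) had the smallest adjusted p-values. Birc5 read 106, 99.3 and 92.6 CPM against 128, 124 and 123, with no overlap. Cdc20 read 225, 222 and 191 against 254, 259 and 255 (-0.27 ± 0.06 (SE), adjusted p = 0.0012) and Aurka 126, 123 and 117 against 138, 138 and 139 (-0.19 ± 0.05 (SE), adjusted p = 0.00327), again apart. Plk1 (-0.18), Tpx2 (-0.20), Ccna2 (-0.20), Ccnb1 (-0.23) and Cdk1 (-0.15) fell too, whereas Aurkb (-0.07), Top2a (0.04), Mki67 (0.02) and Foxm1 (-0.09) did not pass. Mitochondrial transcripts took 0.789% to 1.03% of counts in these libraries and 0.626% to 0.720% under DMSO. Epithelial markers summed to 204 to 238 CPM and leukocyte markers to 6.91 to 9.11, below DMSO, and endothelial markers to 3.23 to 4.499, above it. The part of these in the result was not tested. Replicate 3 of KCl+BMS204352, not among the 3 libraries set apart, was the lowest of its group in all 18 genes that fell. The count of 18 was 7 without this replicate and 11 without DMSO replicate 1.

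Of the 26 genes lowered by KCl+BMS204352 in AT-3 and the 18 lowered in E0771, each against DMSO of its own line, 15 were shared, 57.7% of the former and 83.3% of the latter. The sizes of the sets alone, 26 and 18 of 36, give 13 shared, so nothing particular is read from the overlap. The shared genes were Aurka, Birc5, Bub1, Ccna2, Ccnb1, Cdc20, Cdca8, Cdk1, Cenpa, Incenp, Kif20a, Kif23, Mad2l1, Prc1 and Tpx2. Among the genes with the largest falls in AT-3, the log2 fold change of Mki67 was -0.78 in AT-3 and 0.02 in E0771, that of Top2a -0.56 and 0.04, and that of Ccna2 -0.55 and -0.20. The difference between the lines was not tested for this combination. Within E0771, the 5 comparisons share the DMSO libraries. The log2 fold changes of Cdca8 were -0.18 with KCl, -0.14 with NS11021, -0.16 with BMS204352, -0.38 with KCl+NS11021 and -0.32 with KCl+BMS204352, and each passed.

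**Figure D4:**
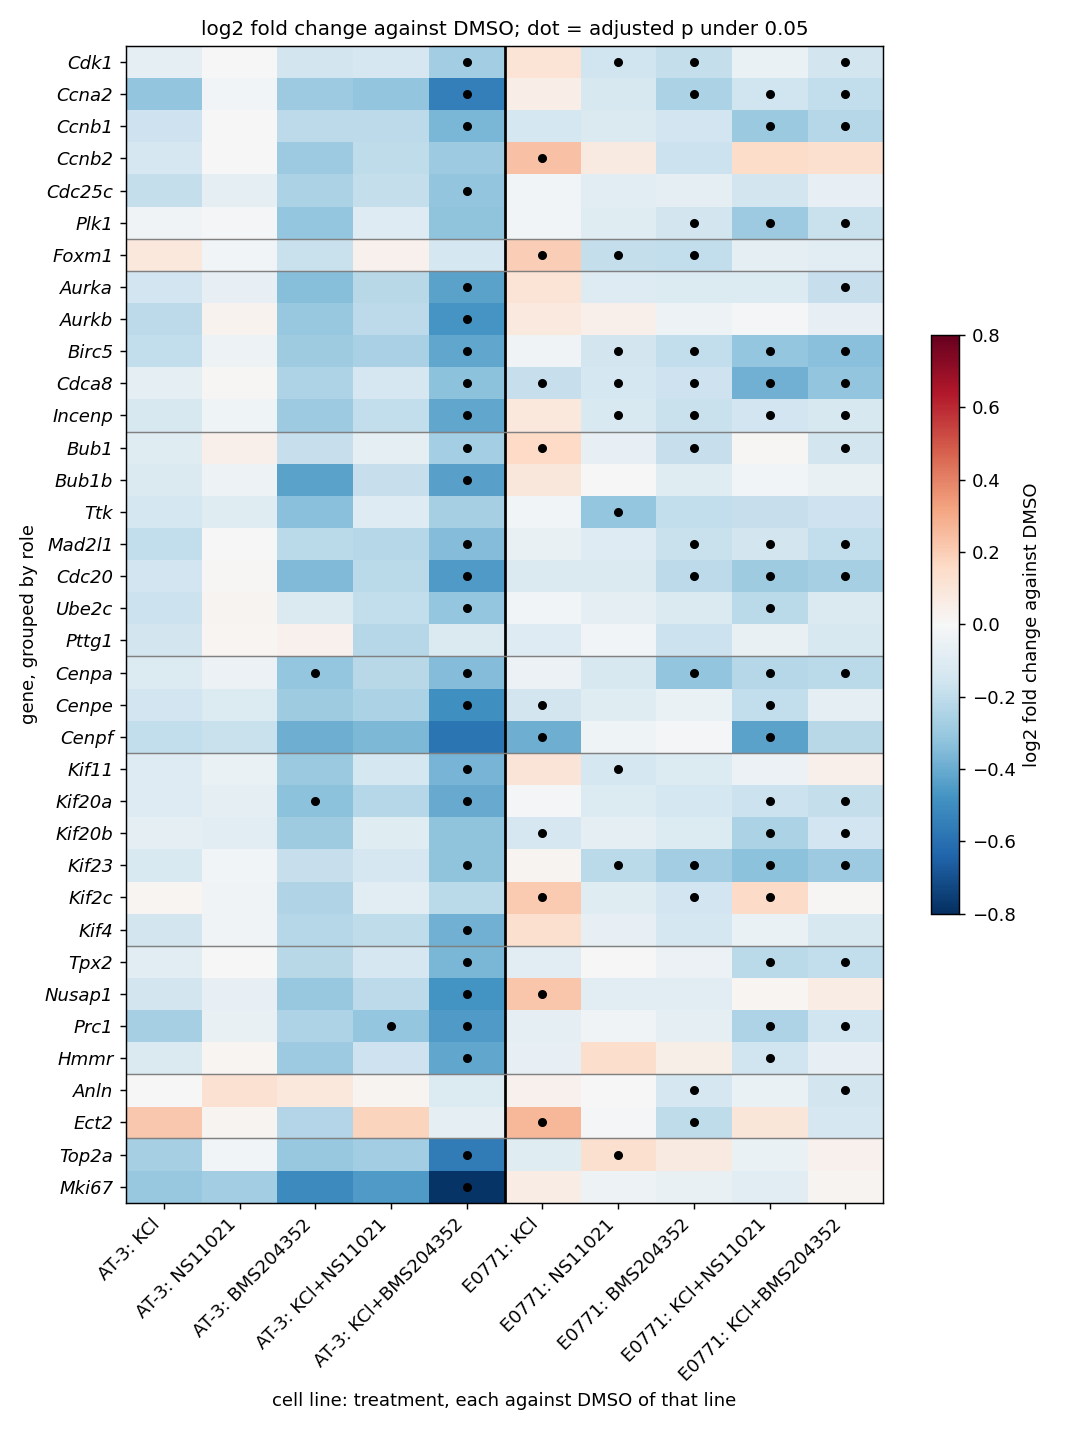
Log2 fold change against DMSO of the same line (colour) for each of the 36 genes (rows, by role) in 5 treatments of AT-3 and of E0771 (columns); dots mark adjusted p under 0.05. Blue fills the KCl+BMS204352 column of AT-3, where 26 genes are dotted, and the KCl column of E0771 mixes 6 dotted rises with 4 dotted falls.

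Against KCl rather than DMSO, both compounds lowered many of the 36 genes in E0771. With KCl+NS11021 against KCl, 16 of 36 fell and none rose, where 17.2% of all genes passed and 7.66% were lower. Kif23 had the smallest adjusted p, at 110.0, 112 and 109.9 CPM against 142, 138 and 143 with KCl (-0.34 ± 0.04 (SE), adjusted p = 2.01e-06). Foxm1 read 209, 213 and 223 against 258, 259 and 261 (-0.27 ± 0.04 (SE), adjusted p = 2.54e-05), and Plk1 179, 181 and 185 against 215, 218 and 228 (-0.27 ± 0.04 (SE), adjusted p = 5.82e-05). Incenp (-0.24), Birc5 (-0.28) and Aurka (-0.22) followed. Of these 6, no KCl+NS11021 library reached the lowest KCl library. The count of 16 was 25, all lower, when only the 6 libraries compared were fitted, and 9 without KCl replicate 3. Shares of all genes called in these fits are not given here.

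With KCl+BMS204352 against KCl in E0771, 15 of 36 fell and 1 rose, where 19.9% of all genes passed, 10.1% lower and 9.85% higher. Kif23 (-0.31 ± 0.04 (SE), adjusted p = 6.38e-06), Foxm1 (-0.28 ± 0.04 (SE), adjusted p = 8.05e-06) and Aurka (-0.30 ± 0.05 (SE), adjusted p = 3.73e-05) led. Aurka read 126, 123 and 117 CPM against 143, 143 and 158 with KCl. Ect2 had the largest fall, to 130.2, 139 and 117 from 158, 174 and 174 (-0.40 ± 0.06 (SE), adjusted p = 7.61e-05), and Bub1 fell to 131, 124 and 112 from 151, 147 and 154 (-0.31 ± 0.06 (SE), adjusted p = 0.000163). No treated library overlapped with KCl in these genes. Top2a was the gene that rose, from 765, 765 and 855 to 889, 898 and 847, where 1 KCl library lay within the treated range (0.13 ± 0.04 (SE), adjusted p = 0.0169). Its call was lost without KCl replicate 1 or 2 or KCl+BMS204352 replicate 2.

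**Figure D5:**
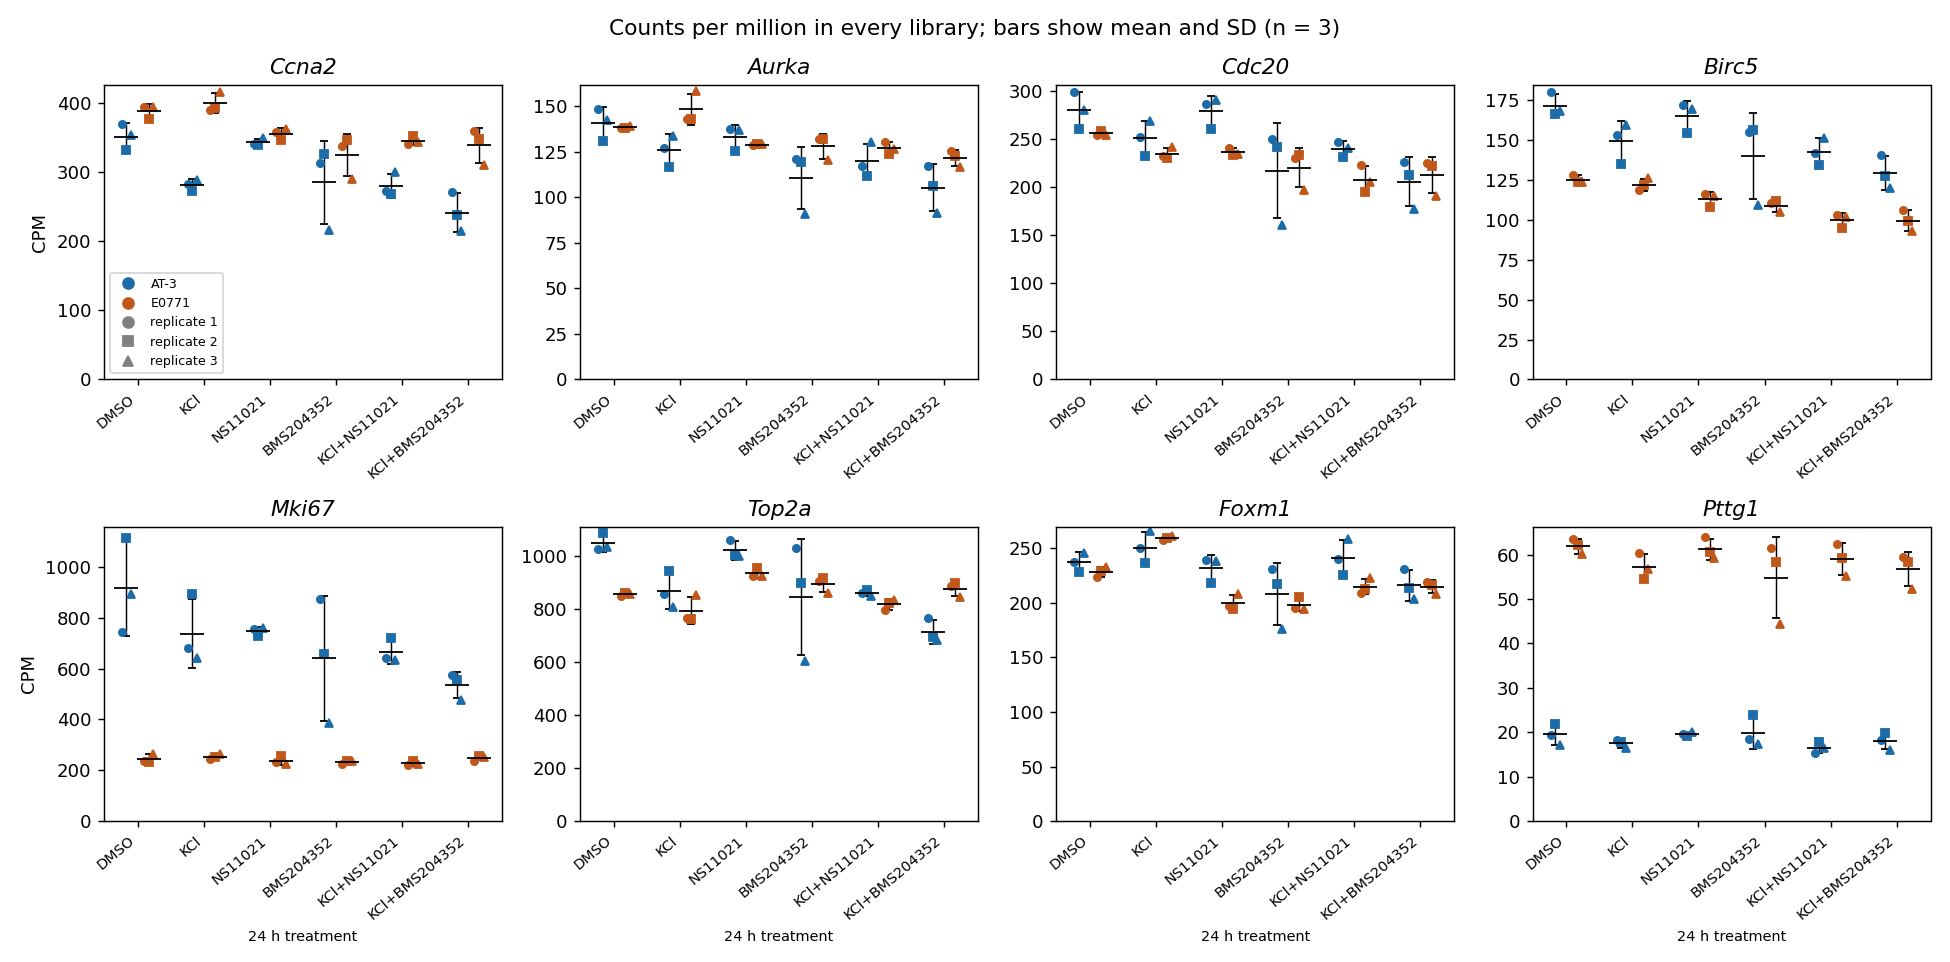
CPM (y axis from 0) of 8 of the genes in every library, by 24 h treatment (x axis); blue is AT-3 and orange E0771, symbols are replicates, and bars show mean and SD (n = 3). Ccna2 and Top2a lie below DMSO in all 3 AT-3 libraries with KCl+BMS204352, and Foxm1 is higher with KCl than under DMSO in E0771.

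The compounds were also set against each other at the same dose and time. In AT-3, NS11021 against BMS204352 had 0 of 36 past the threshold by edgeR, with 2.94% of all genes called by edgeR, and 4 of 36 by DESeq2. There 35 of 36 genes were higher with NS11021, 23 had an unadjusted p under 0.05, and the median log2 difference was 0.23. Shares of all genes for sign and unadjusted p are not given here. Bub1b had the largest difference (0.39 ± 0.12 (SE), adjusted p = 0.103, interval 0.13 to 0.65), and its BMS204352 libraries read 178, 170.2 and 112 CPM against 203, 202 and 194 with NS11021. Without BMS204352 replicate 1 the count was 14. On KCl in AT-3, 0 of 36 passed by edgeR or DESeq2, with 0.454% of all genes called, 12 at an unadjusted p under 0.05 and a median of 0.19 higher with KCl+NS11021. Mki67 had the largest difference there (0.33), with an interval of -0.17 to 0.84 that spans 0. In E0771, NS11021 against BMS204352 had 0 of 36 by edgeR, with 1.76% of all genes called by edgeR. Of the 36, 1 passed by DESeq2 and 6 had an unadjusted p under 0.05. The largest difference was that of Ccnb2 (0.24 ± 0.08 (SE), adjusted p = 0.193, interval 0.07 to 0.42), and without BMS204352 replicate 2 the count was 3. On KCl in E0771, Ect2 alone passed, higher with KCl+NS11021 at 149, 156 and 144 CPM than with KCl+BMS204352 at 130.2, 139 and 117 (0.23 ± 0.06 (SE), adjusted p = 0.0335), where 4.95% of all genes passed and 3.92% were higher. That call was lost when any 1 of 5 of the 6 libraries was left out, KCl+BMS204352 replicate 2 being the exception. All intervals are at 95% and a missed threshold does not show that the compounds act alike.

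Whether KCl changed a compound's effect was tested as an interaction, with no member past the threshold. In AT-3, 0 of 36 passed for either compound by edgeR or DESeq2, with 0 genes of all called and 0 of the 36 at an unadjusted p under 0.05. The largest term was that of Ttk for both compounds (0.14 with NS11021 and 0.21 with BMS204352). In E0771, 0 of 36 passed for NS11021, with 0.217% of all genes called and 4 at an unadjusted p under 0.05, among them Hmmr (-0.23 ± 0.08 (SE), adjusted p = 0.256). For BMS204352, 0 of 36 passed, with 1.62% of all genes called and 2 at an unadjusted p under 0.05, and Aurka had the smallest adjusted p (-0.19 ± 0.07 (SE), adjusted p = 0.168), with the largest term that of Ect2 (-0.20). DESeq2 called 0 in both. Without BMS204352 replicate 3 of E0771, 2 genes passed for the interaction with BMS204352.

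Differences of a treatment's effect between the lines were tested in a fit over all 36 libraries, again with no member past the threshold by edgeR. For KCl, 0 of 36 passed by edgeR, with 9.13% of all genes called by edgeR. Of the 36, 7 had an unadjusted p under 0.05 and 2 passed by DESeq2. Ccna2 (0.36 ± 0.13 (SE), adjusted p = 0.0766, E0771 minus AT-3), Nusap1 (0.36 ± 0.13 (SE), adjusted p = 0.0775) and Ccnb2 (0.36 ± 0.15 (SE), adjusted p = 0.123) had the largest differences. Ccna2 was lower with KCl in all 3 libraries of AT-3 and within the DMSO range or above it in E0771. In the fit without the 3 libraries that stood apart, 10 genes passed for KCl, all with a higher change in E0771, and 9 passed in the fit of only the libraries compared. For NS11021, 0 of 36 passed by edgeR or DESeq2, with 1 at an unadjusted p under 0.05 (Kif23, -0.20 ± 0.08 (SE), adjusted p = 0.18) and 3.99% of all genes called. The largest difference was that of Mki67 (0.23 ± 0.24 (SE), adjusted p = 0.719). For BMS204352, 0 of 36 passed by edgeR, with 5.01% of all genes called by edgeR. Of the 36, 4 had an unadjusted p under 0.05 and 1 passed by DESeq2. The largest difference was that of Mki67 (0.44 ± 0.24 (SE), adjusted p = 0.341). Hmmr had the smallest adjusted p (0.33 ± 0.12 (SE), adjusted p = 0.0882), and without BMS204352 replicate 1 of AT-3 the count was 7.

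Across the 18 libraries of a line, the 36 genes varied together in AT-3 and less so in E0771. Over 630 pairs of genes the median Pearson correlation of log2 CPM was 0.861 in AT-3, with 622 pairs positive, and 0.487 in E0771, with 549 positive. These values describe libraries that share treatments, depth and composition, and have no test. The libraries that stood apart are included. No correlation was computed for other genes, so nothing particular to the 36 is read from these values. In AT-3 the genes least like the mean of the other 35 were Anln (r = 0.174), Pttg1 (0.273) and Ect2 (0.519). In E0771 they were Top2a (-0.0756), Cenpf (-0.0724), Cenpe (0.111) and Mki67 (0.290).

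Outside the 36 genes, 186 other genes of the pathway were followed in 7 lists, of which 185 were tested in AT-3 and 181 in E0771. The alternative analyses followed the 36 genes only, so no call on a list gene, here or below, was checked in them. Among the 36, many calls with KCl+BMS204352 in AT-3 were lost without replicate 3 of that group. With KCl+BMS204352 in AT-3, 5 rose and 86 fell, with a median log2 fold change of -0.26. The counts lower were 19 of 39 kinetochore and checkpoint genes, 10 of 19 genes of condensin, cohesin and separase, and 25 of 38 further spindle, kinesin and cytokinesis genes, with none higher in these lists. Among 24 tested mitotic entry kinases, cyclins and other G2/M genes 14 fell and 1 rose, and among 18 genes of the anaphase-promoting complex and its regulators 8 fell. The DREAM, MuvB, RB and E2F factors had 5 lower and 1 higher of 22, and the CDK brakes and checkpoint arrest genes 5 lower and 3 higher of 25. Ccnf, cyclin F, had the smallest adjusted p (-0.56 ± 0.09 (SE), adjusted p = 0.000443), followed by Bora, which helps Aurora A activate PLK1 (-0.68 ± 0.12 (SE), adjusted p = 0.00124), and Ska2 of the kinetochore (-0.41 ± 0.08 (SE), adjusted p = 0.00138). Wee1, which holds CDK1 inactive, fell with them (-0.39), as did Fbxo5, an inhibitor of the anaphase-promoting complex (-0.51), and Espl1, separase (-0.47). Sfn, the checkpoint protein 14-3-3 sigma, rose (0.29 ± 0.06 (SE), adjusted p = 0.00458). In each of the 7 lists the share lower lies above the 5.88% of all genes that were lower, and it was 46.5% over the list genes together.

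In E0771 the same lists held both rises and falls with KCl and mostly falls with the compounds. With KCl, 25 of 181 genes rose and 32 fell, 31.5% in all against 36.4% of all genes, with a median of -0.02. With NS11021 10 rose and 46 fell (25.4% lower against 13.5% of all genes), and with BMS204352 8 rose and 58 fell (32% against 11.3%). KCl+NS11021 gave 13 higher and 82 lower (7.18% higher against 19.6% and 45.3% lower against 19.04%), and KCl+BMS204352 10 and 64 (35.4% lower against 14.6%). By list, KCl+NS11021 lowered 20 of 39 kinetochore genes, 8 of 19 condensin and cohesin genes, 23 of 37 spindle genes, 15 of 24 entry genes and 7 of 18 genes of the anaphase-promoting complex. It raised 3 and lowered 7 of 22 DREAM and E2F factors, and raised 6 and lowered 2 of 22 CDK brakes. Mybl2, which encodes B-MYB, fell with NS11021 (-0.33 ± 0.05 (SE), adjusted p = 4.78e-06), BMS204352 (-0.28), KCl (-0.22) and KCl+NS11021 (-0.50). E2f7, a repressor of E2F targets, fell with NS11021 (-0.54) and BMS204352 (-0.64) and rose with KCl (0.34). With KCl, Tfdp2, a dimer partner of E2F factors, had the largest rise (1.47 ± 0.07 (SE), adjusted p = 7.16e-17), and E2f1 (0.53) and Cdkn1b, the CDK inhibitor p27 (0.46), rose with it. Trip13, which takes apart checkpoint complexes, fell with KCl (-0.42 ± 0.06 (SE), adjusted p = 9.93e-07) and with KCl+NS11021 (-0.65). Cdc23 of the anaphase-promoting complex, whose exons overlap those of Kif20a, fell with KCl+NS11021 (-0.50), beside a fall of -0.17 for Kif20a.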

How the data were processed

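The authors deposited 1 table of whole-number read counts per gene for the 36 libraries, not normalised. Per the submitters' processing notes, reads were aligned to GRCm38 with STAR and counted with featureCounts, with no version or strand setting found there. Libraries were prepared with the NuGen Universal Plus mRNA kit, per the labels' protocols. Among counts from 1 to 10, 84.5% were even, so read mates may have been counted apart, and halved counts were an alternative. All 36 columns were matched by title, with 0 left over. The 2 IDs of human form (6 counts) were dropped. IDs without a symbol in the GENCODE vM21 annotation (50) held 0.000914% of counts.

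CPM are counts scaled to a library total of 1000000, and levels per kb divide by the union of annotated exons. Tests were edgeR 4.0.16 (R 4.3.3) quasi-likelihood fits with TMM factors, on genes kept by filterByExpr (at least 10 counts, 15 in total): 14772 genes over 18 libraries in AT-3, 13357 over 18 in E0771, and 15969 over 36 for comparisons of the lines. Benjamini-Hochberg adjustment was run separately for each of 26 comparisons. The SE was derived from the test, as the absolute log2 fold change divided by the square root of the quasi-likelihood F. Intervals were built from that SE. Alternatives were DESeq2 1.42.0 (its size factors, and its Wald test), other filters, halved counts, only the libraries compared, a replicate block, and leaving out libraries, singly or the 3 that stood apart. Named members are 10 index genes (Cdk1, Ccna2, Ccnb1, Plk1, Aurka, Aurkb, Cdc20, Top2a, Mki67 and Foxm1), up to 6 in each direction with the smallest adjusted p in a comparison and, where none passed, the one with the largest change. Of each list, up to 3 genes with the smallest adjusted p are named. Members, lists, alternatives and the 3 libraries were chosen with earlier results of these data known. Others named were chosen after their values were seen.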

Additional observations from a re-analysis of the deposited data

Results flagged for a closer look

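In the 3 tests of a difference between the lines (KCl, NS11021 and BMS204352) and the 4 interactions with KCl, none of the 36 genes passed by edgeR's quasi-likelihood test over all libraries of the fit, with DESeq2 and fits on fewer libraries making some calls. Of the 185 other pathway genes, 8, 6 and 4 passed for the line differences in KCl, NS11021 and BMS204352 (4.32%, 3.24% and 2.16%). These shares lie below the 9.13%, 3.99% and 5.01% of all genes. For the interaction with BMS204352 in E0771, 3 of 181 passed (1.66%), close to the 1.62% of all genes. The 10 of these effects on genes named by the rule are as follows, and none was checked in the alternative analyses. The effect of KCl was higher in E0771 than in AT-3 for Tfdp2, with log2 fold changes of 1.47 and 0.18 and a difference of 1.28 ± 0.09 (SE), adjusted p = 9.34e-12. For Cdkn1b the effects were 0.46 in E0771 and -0.002 in AT-3, a difference of 0.45 ± 0.08 (SE), adjusted p = 0.000366. Cdc25b, a phosphatase that activates CDK1, had 0.03 and -0.25, a difference of 0.28 ± 0.07 (SE), adjusted p = 0.0136. Ccng1, cyclin G1, had -0.57 and 0.09, a difference of -0.67 ± 0.07 (SE), adjusted p = 9.19e-08.

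The effect of NS11021 differed between the lines for Gadd45a (1.35 in E0771 and -0.26 in AT-3, a difference of 1.61 ± 0.37 (SE), adjusted p = 0.00937) and for Mybl2 (-0.33 and 0.13, a difference of -0.47 ± 0.09 (SE), adjusted p = 0.0031). Anapc5 and Anapc11, subunits of the anaphase-promoting complex, had effects of -0.18 and -0.20 in E0771 and 0.01 and 0.05 in AT-3, with differences of -0.21 ± 0.05 (SE), adjusted p = 0.0247, and -0.25 ± 0.07 (SE), adjusted p = 0.0495. The effect of BMS204352 on Plk2 was -0.34 in E0771 and 0.22 in AT-3, a difference of -0.57 ± 0.12 (SE), adjusted p = 0.00259. In E0771, Gadd45g fell with BMS204352 (-0.64) and had a change of 0.08 with BMS204352 added to KCl, and the difference of these effects was 0.72 ± 0.12 (SE), adjusted p = 0.00063.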

How the results depend on the processing

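Over the 26 comparisons, 326 of 406 alternative counts of called members equalled the main count or stayed within 1.5 times it. The other 80 did not, and no called member changed direction. A main count of 0 that stayed 0 is among the 326, so this total does not measure how stable single calls are. Of the 155 calls, 84 held in every alternative, all 22 of the DMSO comparison between the lines among them. With DESeq2's Wald test the counts were 1 for KCl, 9 for BMS204352 and 2 for KCl+NS11021 against DMSO in AT-3, 2 for KCl+BMS204352 against KCl and 4 for NS11021 against BMS204352 in AT-3, 1 for NS11021 against BMS204352 in E0771, and 2 (KCl) and 1 (BMS204352) for the line differences. Without a filter on low counts they were 1 for KCl and 1 for BMS204352 against DMSO in AT-3, and in E0771 3 for NS11021 against BMS204352, 2 for the compounds on KCl and 1 for the interaction with NS11021. A filter of 1 CPM in 3 libraries gave 4 for BMS204352 in AT-3 and 2 for the line difference in KCl, and halved counts gave 2 for the latter. Fits of only the libraries compared gave, in AT-3 against DMSO, 3 for KCl, 0 for BMS204352 and 15 for KCl+NS11021, then 2 for KCl+BMS204352 against KCl and 4 for the compounds on KCl. In E0771 such fits gave 20 for KCl, 14 for NS11021, 9 for BMS204352, 25 for KCl+NS11021 against KCl, 2 for the compounds on KCl and 2 for the interaction with NS11021, and for the line difference in KCl 9. Without the 3 libraries that stood apart the counts were 6, 1 and 16 for KCl, BMS204352 and KCl+NS11021 against DMSO in AT-3, 5 for KCl+BMS204352 against KCl there, 6 for BMS204352, 3 for the compounds on KCl and 2 for the interaction with BMS204352 in E0771, and 10 (KCl) and 1 (BMS204352) for the line differences. The cause of these moves was not tested, the smaller number of libraries in some of these fits included. The share of all genes called in each alternative is not given, here or below. A move in a count of called members is thus not read as particular to those members.

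Leaving out 1 library at a time, counts in AT-3 ran from 0 to 26 for BMS204352, 0 to 1 for KCl+NS11021 and 8 to 26 for KCl+BMS204352 against DMSO, and 0 to 14 for NS11021 against BMS204352. In E0771 they ran from 6 to 9 for KCl, 2 to 7 for NS11021, 6 to 18 for BMS204352 and 7 to 18 for KCl+BMS204352 against DMSO, 9 to 13 for KCl+NS11021 against KCl, 12 to 18 for KCl+BMS204352 against KCl, 0 to 3 for NS11021 against BMS204352, 0 to 1 for the compounds on KCl and 0 to 2 for the interaction with BMS204352. For the line differences they ran from 0 to 1 (KCl) and 0 to 7 (BMS204352). Where that left a group with 2 libraries, the fit pooled its spread with the other groups.

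Replicate numbers are shared by all groups. Same-numbered libraries deviated together, with each of the 3 correlations over 0.1, in 1 of 30 pairs of groups (BMS204352 and KCl+BMS204352 in AT-3), so the numbers were not taken to pair the samples. In 16 of the 30 every library correlated best with its own number, a hint from the data and not from the design. Most of the 16 were AT-3 pairs, where only DMSO with BMS204352 and BMS204352 with KCl+NS11021 fell short. In E0771 only BMS204352 with KCl+BMS204352, KCl with KCl+NS11021, and KCl+NS11021 with KCl+BMS204352 were among them. The replicate number may thus be a shared factor in AT-3, and the main tests hold no term for it. A fit with the replicate number as a block gave 1 for KCl, 7 for BMS204352 and 3 for KCl+NS11021 against DMSO in AT-3, 3 for KCl+BMS204352 against KCl, 2 for NS11021 against BMS204352 there, and 1 for the line difference in BMS204352. The block left other counts within 1.5 times. As to depth, the lowest mean of any of the 36 genes in a group was 16.6 CPM (Pttg1, AT-3 KCl+NS11021).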
